A study of Mus musculus with 4 samples.

Results

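Serpinb2 and the clade B serpins that neighbour it on mouse chromosome 1 were examined in kidney tubular cells with and without a functional Serpinb2 gene. The members were the 10 genes Serpinb2, Serpinb10, Serpinb8, Serpinb7, Serpinb5, Serpinb11, Serpinb12, Serpinb13, Serpinb3a and Serpinb3b, taken as every non-control probe that carries one of these gene names in the scanner files. They are 10 of the 29875 named genes or transcripts on the array and had 11 of its 39429 probes, with 2 for Serpinb12 and 1 for each of the others. The probes span 726.3 kb of chromosome 1 in build mm9.

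Clade B serpins are protease inhibitors that stay largely inside the cell, because most of them lack a classical secretion signal. An inhibitory serpin presents a loop as bait, is cut by its target protease and then traps that protease in a covalent complex. SerpinB2, also called plasminogen activator inhibitor type 2, inhibits urokinase and is known as one of the most strongly inducible genes of activated macrophages and stimulated epithelia, including after phorbol ester.

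The study had 4 samples of primary kidney tubular cells, 2 labelled wild type and 2 labelled SerpinB2-/-, each on its own one-colour array. All 4 came from male B6.J mice aged 8 weeks, and all were treated with 100 ng/ml of the phorbol ester PMA, an activator of protein kinase C, so untreated cells were not compared. Total RNA (150 ng per sample) was labelled with Cy3. What the null allele removes from Serpinb2, and how it was made, is not given in the labels. They also do not say whether the samples of a genotype were separate animals, so the p-values measure only the spread between these samples, which may be technical.

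The array 75th percentile of signal, used for scaling, was 1902 and 2068 in wild type and 2143 and 1908 in SerpinB2-/-, and 23409 to 24476 probes per array were well above background. The 4 arrays lay on 1 slide with the wild type arrays in the first positions, so position and genotype cannot be told apart. Across 18392 measured genes, 2884 (15.7%) passed an adjusted p of 0.05 in limma, 1779 lower (9.67%) and 1105 higher (6.01%) in SerpinB2-/-. Scaling by the array median moved the median difference of all genes from 0.01 to 0.14 on the log2 scale and gave 4338 higher and 1245 lower. The count was 812 without wild type replicate 1, 753 without wild type replicate 2, 1579 without SerpinB2-/- replicate 1 and 1409 without SerpinB2-/- replicate 2. Of the proximal tubule markers, 9 of 10 were measured (Slc5a2 was not). Hnf4a was higher, Cdh16 was lower and 7 did not pass, and Slc34a1 was dim at 36.4 to 46.4. With quantile normalization 1 of these 9 was higher and 0 lower, and calls were also lost when some single arrays were left out. Of 6 distal nephron markers, Umod, Slc12a1, Slc12a3 and Calb1 were not well above background, while the sodium channel subunit Scnn1a (log2 difference -1.22 ± 0.08, SE; limma, adjusted p = 0.00706) and the water channel Aqp2 (-0.21 ± 0.07, not past the threshold) were measured on all 4 arrays. Endothelial markers were lower for 4 of 5 measured genes, a count that was 2 when wild type replicate 1 was left out and 1 when wild type replicate 2 was. Fibroblast markers were higher for 1 of 6, for 2 with normexp background correction and for 4 with scaling by the median. With single arrays left out, the median log2 difference of the list ran from 0.21 to 0.43. The calls depended on the array left out, and without SerpinB2-/- replicate 1 they lay in both directions.

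Both genes whose signal turned between the genotypes are transcribed in the same direction. In the RefSeq promoter table of build GRCm38.p6, the first of 2 listed start sites of Serpinb2 lies at position 107511423 of chromosome 1, and the start site of Serpinb10 lies 17.6 kb after it at 107529003. The 250 bases before each start are shown because both hold a word of the AP-1 type, the class of site that phorbol esters are known to act on. Capitals mark matches to TGANTCA and TATAAA.
Serpinb2, chr1:107511173-107511422, plus strand: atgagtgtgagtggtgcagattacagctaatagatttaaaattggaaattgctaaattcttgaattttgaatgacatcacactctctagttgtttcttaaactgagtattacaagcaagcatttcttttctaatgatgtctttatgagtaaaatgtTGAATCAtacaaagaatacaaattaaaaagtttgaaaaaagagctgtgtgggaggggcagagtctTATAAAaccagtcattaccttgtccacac
Serpinb10, chr1:107528753-107529002, plus strand: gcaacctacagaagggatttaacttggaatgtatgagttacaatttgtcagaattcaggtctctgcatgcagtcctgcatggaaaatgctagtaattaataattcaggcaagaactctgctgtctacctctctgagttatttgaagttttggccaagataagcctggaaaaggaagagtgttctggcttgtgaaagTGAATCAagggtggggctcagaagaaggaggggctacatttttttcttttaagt
In both promoters the AP-1 type word reads TGAATCA, and it begins 94 bases before the Serpinb2 start and 54 bases before the Serpinb10 start. Serpinb2 also has TATAAA beginning 29 bases before its start, and Serpinb10 has no TATAAA in its window. Neither window holds the narrower word TGACTCA. These matches are descriptions of letters and not evidence of binding, and a link to PMA was not tested, since all samples received it.

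The same 300-base windows, from 250 bases before to 50 bases after the start, were searched on both strands for the other members. The table matched 9 of the 10 members, with 11 windows, and held no entry for Serpinb13. TGANTCA occurred in windows of 7 of the 9 matched members (Serpinb2, Serpinb10, Serpinb8, Serpinb7, Serpinb5, Serpinb11 and Serpinb12), against 2425 of all 27025 genes with a window. It occurred in 8 of the 11 windows, against 7.81% of all 32851 windows. The 2 windows of Serpinb2 overlap and hold the same TGAATCA. The narrower word TGACTCA, which TGANTCA includes, occurred in 2 members, Serpinb7 and Serpinb8, and Serpinb8 held it at 2 places. Over the array of windows it occurred in 1607 of the 27025 genes, or 5.20% of windows. TATAAA occurred in Serpinb2, Serpinb12, Serpinb3a, Serpinb3b and Serpinb7, against 4234 of the 27025 genes (13.6% of windows). TGACGTCA, the cyclic AMP response word, occurred in none of the 9, against 549 of the 27025 genes (1.79% of windows). The members are copies of one ancestral gene, so their windows are not independent. The 4 members measured below all held TGANTCA, and so did Serpinb7, Serpinb11 and Serpinb12, which were not well above background on these arrays.

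Serpinb2 transcript was abundant in both wild type samples and at background in both SerpinB2-/- samples. Its probe lies at chr1:109422046-109422105 on the plus strand (mm9), and the files do not say which exon this is or whether it lies within the deleted part. The processed signal, in arbitrary scanner units with the SD over the spots of the probe, was 3047 ± 79.7 in wild type 1 and 3383 ± 58.0 in wild type 2. It was 5.88 in SerpinB2-/- 1 and 7.21 in SerpinB2-/- 2. None of the 8 spots on the SerpinB2-/- arrays was well above background, and all 8 wild type spots were. The spots of an array are repeats and not separate samples. The groups do not overlap, as was true of 64.3% of all measured genes in one direction or the other.

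Before any background was subtracted, the Serpinb2 spots of the SerpinB2-/- arrays averaged 25.9 and 30.0, beside a median of 27.4 and 27.7 over the 17214 negative control spots of the same arrays. Serpinb2 was at least 139.7-fold lower in SerpinB2-/-. In this bound the dim group is placed at the lowest signal of any probe well above background on each array. That signal was 24.6 in SerpinB2-/- 1 and 22.3 in SerpinB2-/- 2. The 99th percentile of negative control spots on these arrays was higher, at 32.4 and 55.6, so the bound is not a strict one. The fitted log2 difference was -8.99 ± 0.15 (SE, 2 samples per genotype; limma, adjusted p = 0.000689). This measurement checks the genotype labels: both samples labelled SerpinB2-/- lacked detectable Serpinb2 signal at this probe.

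Serpinb10 showed the opposite pattern. It encodes bomapin, a nuclear serpin described in blood-forming and myeloid cells. Its 60-base probe lies at chr1:109443390-109443449 on the plus strand (mm9), 21.3 kb beyond the Serpinb2 probe. The probe is printed because the rise rests on this single sequence.
Serpinb10 probe: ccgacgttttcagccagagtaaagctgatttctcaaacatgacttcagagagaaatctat
The longest run of bases it shares with the probe of any other chromosome 1 serpin is 9, with Serpinb3d, whose probe was not well above background on any array.

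Serpinb10 signal was 8.02 in wild type 1 and 5.61 in wild type 2. It was 1995 ± 102 in SerpinB2-/- 1 and 1401 ± 59.9 in SerpinB2-/- 2 (SD over spots). None of the 8 wild type spots was well above background, with the brightest at 16.8, while all 8 SerpinB2-/- spots were. These spots are repeats within an array and not separate samples. The groups do not overlap, as was true of 64.3% of all measured genes in one direction or the other. By the same kind of bound, Serpinb10 was at least 67.0-fold higher in SerpinB2-/-. The fitted log2 difference was 8.04 ± 0.18 (SE, 2 samples per genotype; limma, adjusted p = 0.00107).

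The SerpinB2-/- samples differed from each other in Serpinb10 by 0.34 on the scaled log2 scale. A gap of that size or more between these arrays was found in 4.81% of the measured genes, whose median gap was 0.08. The corresponding gap between the wild type arrays for Serpinb2 was -0.03, against a median absolute gap of 0.08. The amount of Serpinb10 transcript thus varied between the SerpinB2-/- samples more than most transcripts did, but by far less than it differed between genotypes.

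Serpinb2 and Serpinb10 entered the test only through the genotype in which they were bright, so a large difference followed from their inclusion. Of the 4 members that were measured, 1 was called lower and 1 higher, beside 9.67% lower and 6.01% higher over all genes, and this count is not read as a property of the cluster. With 2 samples per genotype an exact permutation test of a single gene cannot give a two-sided p below 0.333, and the calls rest on limma's sharing of the spread across genes. In the authors' deposited table Serpinb2 read 2399, 2450, 4 and 5, and Serpinb10 read 4, 4, 1392 and 1098, in the order wild type 1, wild type 2, SerpinB2-/- 1 and SerpinB2-/- 2, where 4 was the lowest value in the table.

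**Figure D1:**
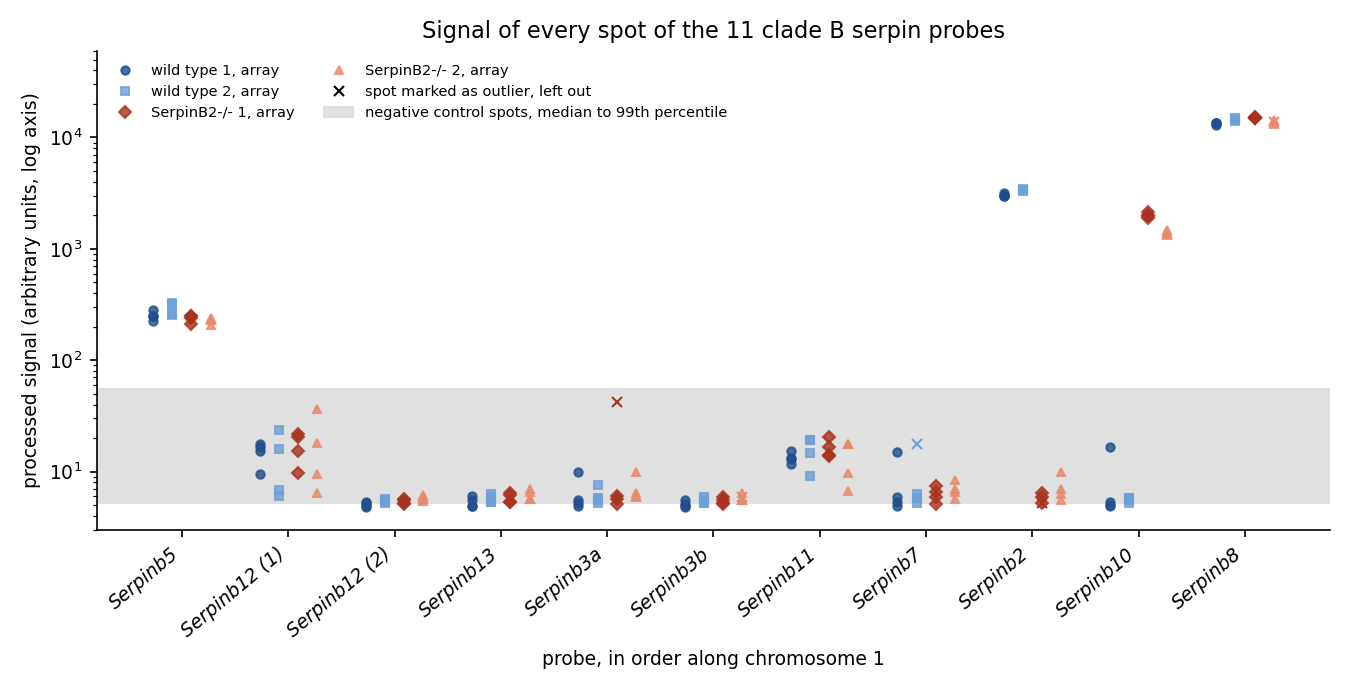
Processed signal of every spot (log axis, arbitrary units) for the 11 probes in chromosome order, by array; crosses are spots left out as outliers and the grey band is the median to the 99th percentile of negative control spots. Serpinb2 and Serpinb10 exchange places between the genotypes, Serpinb5 and Serpinb8 lie above the band on every array, and the other 7 probes lie within or below it.

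Serpinb8, the other gene on the far side of Serpinb2, did not pass the test. It encodes a serpin known to inhibit the proprotein convertase furin. Its probe lies 82.8 kb beyond that of Serpinb2, and its signal was 13336 and 14569 in wild type and 14948 and 13716 in SerpinB2-/-. The groups overlap, and the log2 difference was 0.01 ± 0.06 (SE, n = 2 per genotype; limma, adjusted p = 0.912), with a 95% interval of -0.14 to 0.16 before any adjustment for the number of genes.

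The Serpinb8 probe contains an unbroken run of 14 bases of alternating G and T. All 84 array probes with such a run were well above background on all 4 arrays, whereas 58.7% of all 39429 probes were. How much of the Serpinb8 signal belongs to Serpinb8 transcript was not tested.

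Serpinb5, or maspin, a serpin of epithelial cells that does not inhibit proteases, lay at the other end of the cluster, 643.5 kb before Serpinb2. Its signal was 251 and 289 in wild type and 236 and 227 in SerpinB2-/-. The groups do not overlap, as was true of 64.3% of all measured genes in one direction or the other. The log2 difference was -0.24 ± 0.07 (SE, n = 2 per genotype), with an unadjusted 95% interval of -0.42 to -0.06, and it did not pass the threshold (limma, adjusted p = 0.0867).

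Some squamous epithelial markers were lower in the same samples. Of 15 listed squamous and urothelial genes, 9 were measured, 5 were lower and 0 higher, beside 9.67% of all genes lower and 6.01% higher, with a median log2 difference of -0.43 beside 0.01 over all genes. Involucrin (Ivl), a protein of the cornified envelope, was among the lower ones at -1.24 ± 0.09 (SE), while Krt20, Trp63, Krt5 and Krt14 did not pass. The summed level of the 9, in units of each array's 75th percentile, was 49.3 to 52.6 in wild type and 38.5 to 38.9 in SerpinB2-/-. The brightest were Krt20 (59586 and 72413 in wild type, 59488 and 51556 in SerpinB2-/-) and Sprr1a (27886 and 29814, 19004 and 17318). The sum thus mostly follows Krt20 and Sprr1a and does not describe the list as a whole. Another 6 (Dsg3, Krt4, Krt6a, Upk1b, Upk2 and Upk3a) were not well above background. The count of lower genes was 3 without either wild type array and 4 without either SerpinB2-/- array, and the part of these cells in the Serpinb5 value was not tested. In bulk RNA, fewer cells of a type and less RNA per cell cannot be told apart.

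The remaining 6 members were not well above background in either genotype, so no difference is given for them. Their 7 probes averaged 5.10 to 17.5 per array, and 2 of their 112 spots were marked as well above background. For 72 of those spots the scanner software had replaced the value by a surrogate, so order among the lowest values carries no meaning. A signal at background does not show that a gene is silent.

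Serpinb7, or megsin, a serpin described in kidney mesangial cells, is the next gene before Serpinb2 in the RefSeq order, with its probe 73.0 kb away. It read 7.80, 5.78, 6.26 and 6.90 in the order wild type 1, wild type 2, SerpinB2-/- 1 and SerpinB2-/- 2. None of its 16 spots was well above background. The Serpinb10 probe thus became measurable in SerpinB2-/- and the Serpinb7 probe did not. Readings at background cannot show whether Serpinb7 transcript changed.

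Serpinb11, 145.3 kb before Serpinb2, read 13.3 and 15.5 in wild type and 16.2 and 12.9 in SerpinB2-/-, and the groups overlap. Its spots carried no surrogate values. Before background subtraction they averaged 43.3 to 46.6, above the negative control median of 27.4 to 27.8 on the same arrays, but no spot met the scanner's limit for well above background.

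The first Serpinb12 probe behaved like that of Serpinb11. Serpinb12 encodes an inhibitor of trypsin-like proteases, and its probes lie 575.9 kb before Serpinb2 and share 24 bases. The first read 14.8, 13.1, 16.8 and 17.5, with 1 of 16 spots well above background, and the second read 5.10, 5.40, 5.37 and 5.82, with none. The probes of this gene thus gave different readings, and neither separated the genotypes by more than the spread between its spots.

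Serpinb13, or headpin, an inhibitor of cathepsins L and K, lies 524.4 kb before Serpinb2 and read 5.37 to 6.23. Serpinb3a and Serpinb3b, mouse relatives of the human squamous cell carcinoma antigens, lie 479.7 and 370.8 kb before Serpinb2 and read 5.60 to 7.03 and 5.13 to 5.87. A single Serpinb3a spot on SerpinB2-/- array 1 read 42.0, was marked as an outlier by the scanner software and was left out.

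Of their paralogs in the same cluster that were not among the 10, Serpinb3d was not well above background. Serpinb3c read 44.8, 47.8, 44.4 and 39.3, with a log2 difference of -0.17 that did not pass the threshold (limma, adjusted p = 0.0998). Its probe shares a run of 17 bases with that of Serpinb3a.

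Within the cluster, Serpinb2 and Serpinb10 were the only measured genes that passed the threshold, beside 15.7% of all measured genes. Both entered the test only through the genotype in which they were bright, so this is not read as a property of the cluster. The files place 14 probes within the span of the cluster, of which 13 are for clade B serpins, and the remaining one, for an unnamed transcript, was not well above background. The nearest measured named genes outside the cluster were Vps4b, an ATPase of the endosomal sorting machinery, 753.8 kb before Serpinb2, and Kdsr, an enzyme of sphingolipid synthesis, 801.4 kb before it. Vps4b differed by -0.10 ± 0.06 (SE; limma, adjusted p = 0.312) and Kdsr by -0.08 ± 0.10 (SE; limma, adjusted p = 0.626). On the other side, an unnamed transcript 851.7 kb away differed by -0.15 ± 0.06 (SE; limma, adjusted p = 0.134), and the cadherins Cdh7 and Cdh19 were not well above background.

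**Figure D2:**
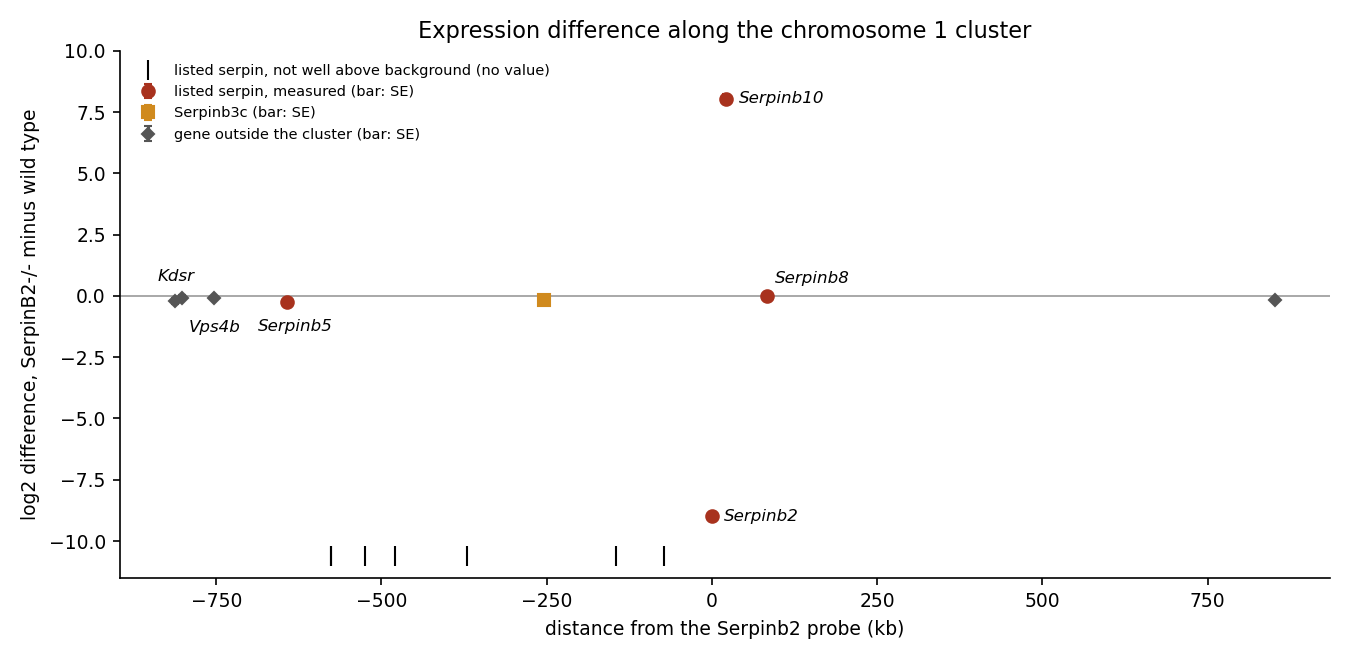
Log2 difference (SerpinB2-/- minus wild type, with SE) against distance in kb from the Serpinb2 probe, for the 4 measured members, Serpinb3c and the measured genes flanking the cluster; ticks at the bottom mark members with no value. Serpinb2 at -8.99 and Serpinb10 at 8.04 stand 21.3 kb apart, and every other measured gene lies between -0.24 and 0.01.

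Likeness of profile was measured as the root mean square difference between log2 values over the 4 arrays, each gene centred on its own mean. The genes most like Serpinb2 were Cntnap5a (2.70), Apob (3.1) and Gm8221 (3.26), and those most like Serpinb10 were Folh1 (2.75), Igsf21 (2.90) and Xlr4b (3.03). The median distance over all measured genes was 4.50 from Serpinb2 and 4.02 from Serpinb10. With so few arrays the distance mostly follows the size and direction of the genotype difference, and none of these genes is a close match. These distances include values at background, where signals have no order, for Serpinb2, Serpinb10, Cntnap5a, Apob and Gm8221, so they depend on background values and give no firm order of likeness. Cntnap5a was at least 3.47-fold, Apob at least 4.4-fold and Gm8221 at least 2.33-fold lower in SerpinB2-/-, while Folh1, measured in both genotypes, differed by 2.58 ± 0.17 (log2 ± SE).

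Serpinb10 is known from myeloid cells, so leukocyte markers were read in the same samples. The cell source of the Serpinb10 signal was not tested. In bulk RNA, fewer cells of a type and less RNA per cell cannot be told apart. Of 14 listed, 10 were measured, 5 were lower and 0 higher in SerpinB2-/-, beside 9.67% of all genes lower and 6.01% higher, with a median log2 difference of -0.42 against 0.01 over all genes. The neutrophil antigen Ly6g differed by -1.28 ± 0.09, and the macrophage receptors Csf1r and Adgre1 by -0.56 ± 0.08 and -0.71 ± 0.12 (log2 ± SE). Laptm5 and Ptprc were also lower. Cd68 (-0.33), Lyz2 (-0.27), Itgam (-0.09) and Cd14 (-0.03) did not pass. The summed level of the 10 was 11.4 to 12.2 in wild type and 9.85 to 10.1 in SerpinB2-/-, in units of the array 75th percentile. Its largest part was Itgam, the brightest of the 10. Of the genes of immature myeloid cells on the list, Mpo, Prtn3, Ctsg and Cebpe were not well above background, whereas Elane, neutrophil elastase, read 1531 and 1766 in wild type and 1628 and 1452 in SerpinB2-/- and did not pass (log2 -0.13 ± 0.06, SE; limma, adjusted p = 0.221). The count of lower markers was 1 without wild type replicate 1, 2 without wild type replicate 2, 6 without SerpinB2-/- replicate 1, 2 without SerpinB2-/- replicate 2 and 2 with quantile normalization.

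Of the 13 listed proteases that clade B serpins are known to meet, 6 were measured, 1 was lower and 0 higher. This is near the 15.7% of all genes called, so the count is not read as a property of the list. Plau, which encodes urokinase, the main target of SerpinB2, read 5846 and 7646 in wild type and 4803 and 3776 in SerpinB2-/-. The groups do not overlap, as was true of 64.3% of all measured genes in one direction or the other. The log2 difference of Plau was -0.68 ± 0.12 (SE; limma, adjusted p = 0.0269). No protease was called without wild type replicate 2 or without SerpinB2-/- replicate 2. Furin, the target of SerpinB8, differed by 0.02 ± 0.06, and cathepsin L (Ctsl), a target of SerpinB13, by -0.10 ± 0.06, and neither passed.

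Among the clade B serpins of chromosome 13, the other cluster of the family, 11 of 15 listed were measured. Of these, 6 were lower, 0 were higher and 5 did not pass, beside 9.67% of all genes lower and 6.01% higher, with a median log2 difference of -0.40 beside 0.01 over all genes. Serpinb9f read 92.7 and 110 in wild type and 47.5 and 54.4 in SerpinB2-/- (log2 -1.02 ± 0.13; limma, adjusted p = 0.0157). Serpinb9e, a close copy, read 80.4 and 99.5 against 43.4 and 47.3 (log2 -1.01 ± 0.12), and Serpinb9g was at least 1.62-fold lower (limma, adjusted p = 0.0494). Serpinb6b read 8861 and 8898 against 5839 and 5082 (log2 -0.73 ± 0.07; limma, adjusted p = 0.00845).

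The Serpinb9 genes are near copies of one another, so signal may be shared among their probes. The median of the list was negative under all 16 alternative settings (-0.48 to -0.26), while the count of lower genes was 2 without wild type replicate 1, 1 without wild type replicate 2, 5 without SerpinB2-/- replicate 1 and 7 without SerpinB2-/- replicate 2.

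**Figure D3:**
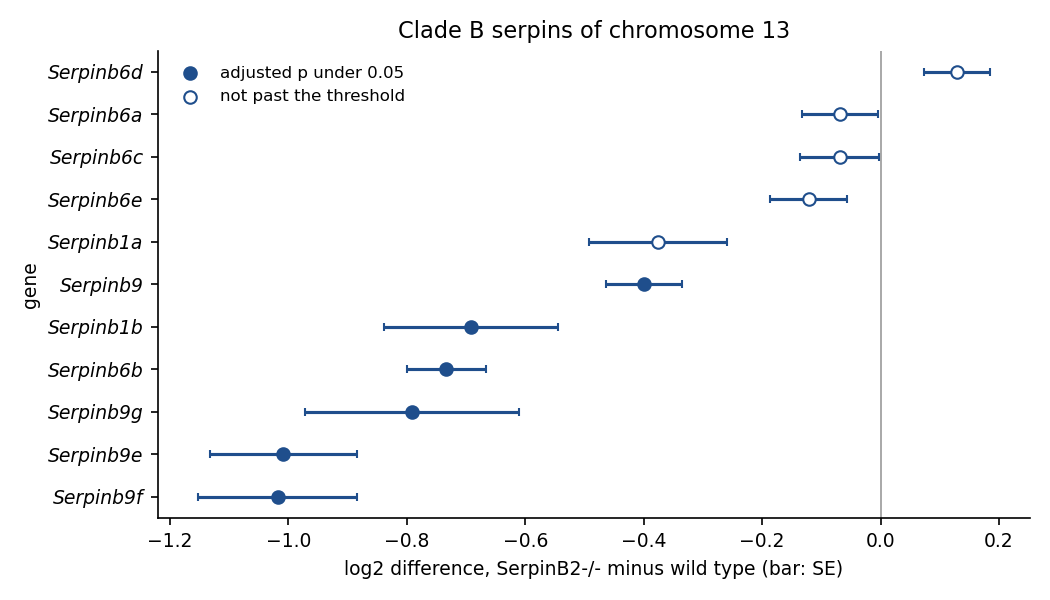
Log2 difference (SerpinB2-/- minus wild type, with SE) of the 11 measured clade B serpins of chromosome 13; filled points passed an adjusted p of 0.05. The lowest is Serpinb9f at -1.02, 6 points are filled and all of these lie below 0.

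The directions of Serpinb2 and Serpinb10 held in each of the 15 alternative settings that gave them a value. Each gene was bright in the genotype through which it entered the test and at background in the other. These settings could therefore hardly reverse the direction, and the agreement is not read as support. Serpinb2 ran from -9.21 to -5.68 and Serpinb10 from 4.72 to 8.27, with the smallest sizes under normexp background correction, which adds an offset of 50 before the log and so compresses differences from background. Serpinb5 stayed below 0 and short of the threshold in all 16 settings (-0.30 to -0.11). Serpinb8 ran from -0.03 to 0.15 and changed sign in 4 of them without passing.

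**Figure D4:**
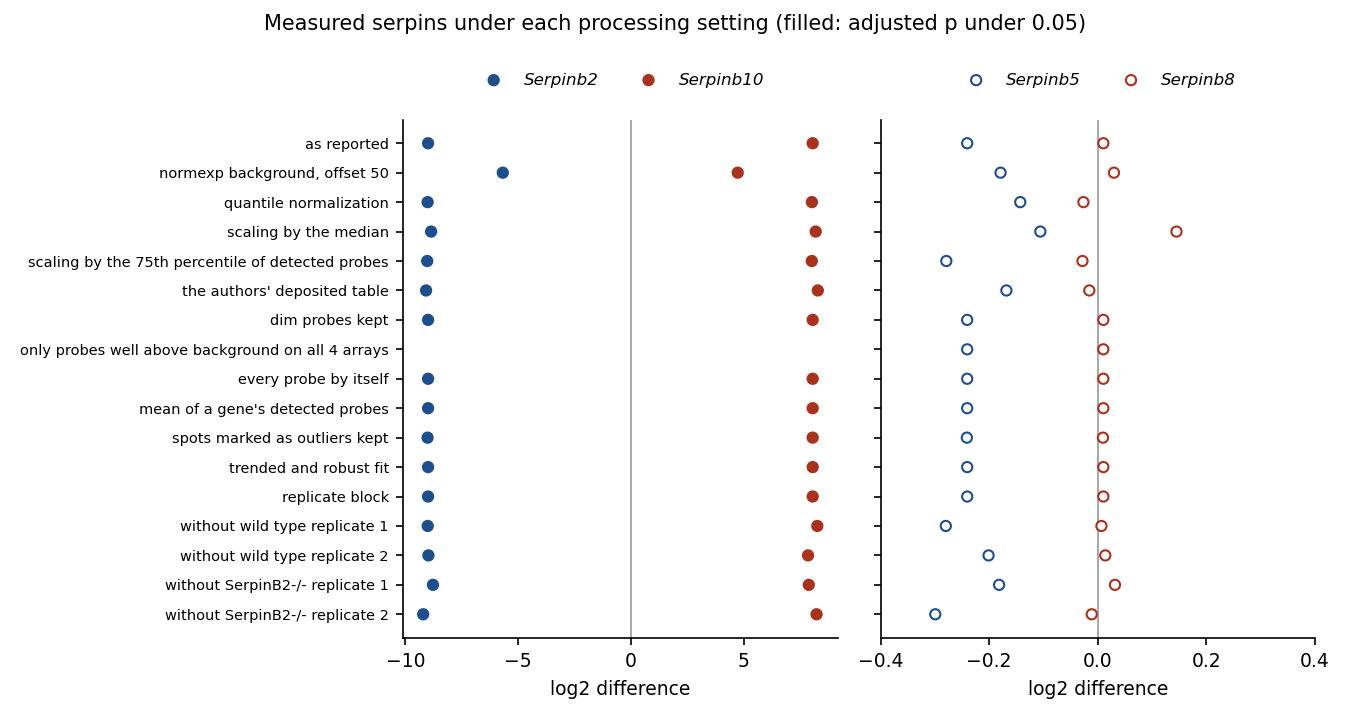
Log2 difference of the 4 measured members under the reported processing and each alternative; filled points passed an adjusted p of 0.05. Serpinb2 and Serpinb10 are filled wherever they have a value, Serpinb5 and Serpinb8 nowhere, and the right panel has the narrower axis.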

How the data were processed

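The deposited scanner files hold spot intensities made with Agilent Feature Extraction 10.7.3.1, per the file headers: background subtracted, spatially detrended, with surrogates for dim spots. The flags for outlier, well above background and surrogate, and a p-value of each spot against background, are the scanner's own in the deposited files; the p-value was not used in a test. The authors' deposited table held linear intensities with a 75th percentile of 1500 per array and medians of 76, 77, 68 and 71; it followed the scanner values by one factor per array (0.698 to 0.787; 95.0% to 95.9% of probes within 5%), with no gene centring found, and its making is not given in the sources used here.

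Control spots and outliers were dropped, the spots of a probe were averaged as log2 values, and each array's 75th percentile was subtracted. A probe was measured if over 50% of its spots were well above background on both arrays of a genotype, and the brightest such probe stood for a gene. Genes were compared as SerpinB2-/- minus wild type with limma 3.58.1 in R 4.3.3 (eBayes, Benjamini-Hochberg over 18392 genes, threshold 0.05). The code was tested on simulated data. For a group not well above background, the bright group's mean was set against, per array, the higher of the probe's signal and the lowest signal well above background. Signals printed per sample are before scaling. They are arithmetic means over spots for the members, and averages of log2 values put back on the linear scale for other genes. No spot of the listed probes was saturated, and the number of arrays limits the precision.

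Probe positions are those of the files (mm9); promoter sequences are RefSeq's (GRCm38.p6), and the builds were not mixed. Genes were named by rule: the members; in the other lists up to 4 called genes with the largest change, with uncalled proteases given for contrast; 3 genes on each side; and 3 most alike. Leukocyte and squamous markers were named after their values were seen. Members and lists were chosen with earlier results of these data known.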

Additional observations from a re-analysis of the deposited data

How the results depend on the processing

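Of 16 alternative settings, 15 gave the same 2 calls among the members. Keeping only probes well above background on all 4 arrays left 2 members measured and 0 called, because it removes Serpinb2 and Serpinb10 by construction. The agreement of the other settings was likewise largely fixed by how these 2 genes entered the test, and is not read as support. Over all genes, the 2884 calls became 5583 with scaling by the median, 3 of 29875 with dim probes kept, and 753 to 1579 with one array left out. The cause of these changes was not tested. The other settings gave 2143 to 3858 calls, trended and robust fitting 3834 and single probes 3858. Serpinb8 turned to -0.0263 with quantile normalization, -0.0281 with scaling by the 75th percentile of detected probes and -0.0155 in the authors' deposited table, and ran from -0.0110 to 0.0318 with one array left out, none past the threshold. With dim probes kept, no gene of the protease, chromosome 13 or marker lists was called.

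Replicate numbers are shared by the genotypes, but no label says that they pair samples, and with only 2 pairs the deviations of same-numbered samples gave a Pearson correlation of 0.26 and a Spearman correlation of -0.35 across genes, which are not independent. With the replicate block, 2143 genes were called, Serpinb2 had an adjusted p of 1.31e-06 and Serpinb10 of 8.6e-07 in limma, and no call among the members changed. A probe near background gives only a bound, so the size of the Serpinb2 and Serpinb10 differences is limited by background rather than by the bright group.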
